A study of Arabidopsis thaliana with 18 samples.

Results

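The 53 genes described here encode proteins of the large (60S) subunit of the cytosolic ribosome of Arabidopsis thaliana. They are the rows of the gene count table whose locus names stand on a list of 60S ribosomal protein genes, 53 of 32833 rows in all, and they fall into 26 protein families. Of these families, 6 have 1 listed gene, 13 have 2 and 7 have 3. Another 77 genes annotated for 60S proteins are not on the list and include further paralogs of some of these families. RNA-seq was carried out on whole seeds of 3 genotypes in the Col-0 ecotype, each sampled after imbibition for 6 h on wet filter paper and freshly harvested and dry. The 6 groups, with 3 libraries each, were imbibed mkk3-1, imbibed mpk7_ko3, imbibed Col-0 (wild type), dry mkk3-1, dry mpk7_ko3 and dry Col-0 seeds. The mkk3-1 line is labelled a knock-out of MKK3, a mitogen-activated protein kinase kinase, and mpk7_ko3 a knock-out of MPK7, a mitogen-activated protein kinase. Each mutant is a single line, all seeds carry the Col-0 background, and the labels do not say whether the 3 libraries of a group came from separate harvests, so that the p-values measure the spread between these libraries only.

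The 60S subunit carries the peptidyl transferase centre, where peptide bonds form, and the tunnel through which the new peptide leaves. In Arabidopsis each of its proteins is encoded by a small family of nuclear paralogs, and a ribosome holds 1 copy of most of these proteins, whichever paralog made it. A dry seed stores ribosomes and mRNA from its development, and translation resumes when the seed takes up water. Levels below are CPM (read counts scaled to a common library size) after TMM scaling between libraries, and differences are log2 ratios with their standard error (SE) from edgeR, called where the p-value adjusted over all genes tested (Benjamini-Hochberg) was below 0.05.

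The libraries held 18249333 to 21036275 counts, and 17758 genes, among them all 53 of these, passed the filter on low counts. The lowest count of any of the 53 genes in any library was 23, for RPL10B in a dry mkk3-1 library, and the highest was 23133, for L19 gene AT1G02780 in an imbibed Col-0 library. MPK7 had 11.3, 13.1 and 14.3 CPM in imbibed mpk7_ko3 seeds, against 32.3, 37.3 and 36.02 in imbibed Col-0 seeds, and 15.2, 14.3 and 14.7 CPM in dry mpk7_ko3 seeds, against 44.2, 38.7 and 40.9 in dry Col-0 seeds. MPK7 was thus lower in both states of the mutant without overlap. MKK3 had 7.12, 7.21 and 7.75 CPM in dry mkk3-1 seeds, against 18.6, 17.3 and 16.2 in dry Col-0 seeds. In imbibed seeds labelled mkk3-1, MKK3 stood at 12.7, 12.3 and 10.3 CPM, against 14.1, 13.4 and 12.5 in imbibed Col-0 seeds. These imbibed groups overlapped and did not differ past the threshold (log2 -0.18 ± 0.0976, adjusted p = 0.307), so the directions given for imbibed mkk3-1 rest on the labels; where in MKK3 the lesion lies is not given in the sources used here. All 8 embryo storage markers, 2 of 6 endosperm markers, 7 of 10 seed coat markers and 4 of 6 green tissue markers passed the filter. The summed green tissue markers lay between 19.8 and 131 CPM, and the summed storage markers between 30450 and 78212 CPM. In such whole seeds, fewer cells of a type and less RNA per cell cannot be told apart.

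Arabidopsis ribosomal protein promoters are known for 2 short elements, the telo box (AAACCCTA) and the site II element (TGGGCC or TGGGCT). Among the 250 bases before the annotated start, read on both strands, 36 of the 53 genes (67.925%) held a site II element, against 19.182% of 27443 nuclear protein-coding genes. A telo box was found for 13 genes (24.528%), against 4.486% of all genes, and both elements for 9 genes (16.981%), against 1.363%. The shares were 72.727% and 20.779% (site II and telo box) for the other 60S genes and 66.265% and 14.458% for the genes of the small subunit. The upstream bases of the L10, L12 and L24 paralogs are shown because these families held the genes with some of the largest differences in behaviour between paralogs. They are from TAIR10.1 (RefSeq), whose gene ends match the TAIR10 coordinates of the count table, read from the 5′ to the 3′ end on the strand of the gene and ending at the base before the gene. They stop at a neighbouring gene where one lies closer than 150 bases, and capitals mark both elements on either strand.
SAC52 (AT1G14320, L10; chr1:4887964-4888113, plus strand): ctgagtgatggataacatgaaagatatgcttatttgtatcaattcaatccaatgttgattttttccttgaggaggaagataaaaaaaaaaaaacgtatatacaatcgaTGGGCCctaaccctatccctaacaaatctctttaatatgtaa
RPL10B (AT1G26910, L10; chr1:9321513-9321649, plus strand): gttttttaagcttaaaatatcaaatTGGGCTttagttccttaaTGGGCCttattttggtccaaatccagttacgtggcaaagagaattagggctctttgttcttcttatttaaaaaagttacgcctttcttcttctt
SAG24 (AT1G66580, L10; chr1:24838940-24839089, plus strand): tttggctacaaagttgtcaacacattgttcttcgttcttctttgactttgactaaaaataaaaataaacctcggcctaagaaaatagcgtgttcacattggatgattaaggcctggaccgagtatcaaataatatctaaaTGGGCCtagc
AT2G37190 (L12; chr2:15620157-15620256, minus strand): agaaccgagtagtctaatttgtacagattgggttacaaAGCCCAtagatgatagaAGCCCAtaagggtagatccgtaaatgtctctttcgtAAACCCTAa
AT3G53430 (L12; chr3:19810521-19810654, minus strand): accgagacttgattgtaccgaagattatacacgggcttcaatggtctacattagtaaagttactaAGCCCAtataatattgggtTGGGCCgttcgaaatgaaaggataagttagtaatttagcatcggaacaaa
AT5G60670 (L12; chr5:24381600-24381749, minus strand): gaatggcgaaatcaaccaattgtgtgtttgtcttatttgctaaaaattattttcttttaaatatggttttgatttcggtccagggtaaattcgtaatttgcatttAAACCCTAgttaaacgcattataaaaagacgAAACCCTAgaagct
RPL24A (AT2G36620, L24; chr2:15352014-15352163, minus strand): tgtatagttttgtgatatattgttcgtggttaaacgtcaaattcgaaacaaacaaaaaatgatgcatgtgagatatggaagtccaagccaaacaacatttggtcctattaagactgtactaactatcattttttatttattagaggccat
STV1 (AT3G53020, L24; chr3:19662026-19662175, minus strand): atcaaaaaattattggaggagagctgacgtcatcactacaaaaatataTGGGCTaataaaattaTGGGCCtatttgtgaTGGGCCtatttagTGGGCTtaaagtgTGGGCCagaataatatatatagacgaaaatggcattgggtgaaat

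All 3 L10 genes held site II elements and none held a telo box. In the L12 family AT5G60670 held 2 telo boxes and no site II element, AT3G53430 held 2 site II elements and no telo box, and AT2G37190 held 1 telo box and 2 site II elements. STV1 held 5 site II elements, and RPL24A neither element. These matches describe the letters of the window and are not evidence of binding.

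Outside 1 tandem pair, no 150-base window of these transcripts occurred word for word elsewhere, apart from genes that overlap them. Whether shorter or mismatched reads of paralogs were told apart was not tested. Coding identity within families was 68.65% to 94.16%, except for the tandem L9 pair AT1G33120 and AT1G33140, which start 12346 bases apart on chromosome 1 and are 99.15% identical over the alignment of their coding sequences. The pair differs at 5 of 585 coding bases, and 48.0% and 52.1% of the 150-base windows of their transcripts occur word for word elsewhere, so counts may be split between them. The stretch below (coding bases 428 to 487, within 1 exon) holds 3 of these differences, which the capitals mark in the first pair; in AT4G10450, the third L9 gene, capitals mark its 10 differences from AT1G33120.
AT1G33120 (chr1:12011578-12011637, plus strand): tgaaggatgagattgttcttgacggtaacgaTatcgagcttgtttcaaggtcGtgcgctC
AT1G33140 (chr1:12023952-12024011, plus strand): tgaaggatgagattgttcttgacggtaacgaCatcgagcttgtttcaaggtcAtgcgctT
AT4G10450 (chr4:6463878-6463937, minus strand): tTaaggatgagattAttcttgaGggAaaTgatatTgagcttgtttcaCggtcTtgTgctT

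Exons of some members also overlap an antisense neighbour, which cannot be told apart without strand. The largest overlaps were 40.05% of the exons of L6 gene AT1G18540 and 35.69% of those of L6 gene AT1G74060, whose antisense neighbours were listed at 0 in every library. The exons of L8 gene AT4G36130 overlap by 23.89% with AT4G36140, and those of L18 gene AT5G27850 by 16.98% with AT5G27860; both neighbours had reads.

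Transcripts of these genes were among the more abundant in the seed and were higher in imbibed than in dry seeds of all 3 genotypes. Together they took 1.72 ± 0.0611% of counts in imbibed and 0.495 ± 0.00479% in dry mkk3-1 seeds, 1.67 ± 0.0754% in imbibed and 0.448 ± 0.0166% in dry mpk7_ko3 seeds, and 2.24 ± 0.0720% in imbibed and 0.578 ± 0.0655% in dry Col-0 seeds (SD, n = 3 libraries each). The summed level was 13960 ± 532 CPM in imbibed and 5900 ± 223 in dry mkk3-1 seeds, 13996 ± 775 in imbibed and 5509 ± 297 in dry mpk7_ko3 seeds, and 18279 ± 502 in imbibed and 7119 ± 535 in dry Col-0 seeds. The imbibed level was thus 2.37, 2.54 and 2.57 times the dry level in mkk3-1, mpk7_ko3 and Col-0 seeds after TMM scaling. As percent of counts the ratios were 3.48, 3.73 and 3.88. Every imbibed library lay above every dry library, and within a state every Col-0 library lay above every mutant library.

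**Figure D1:**
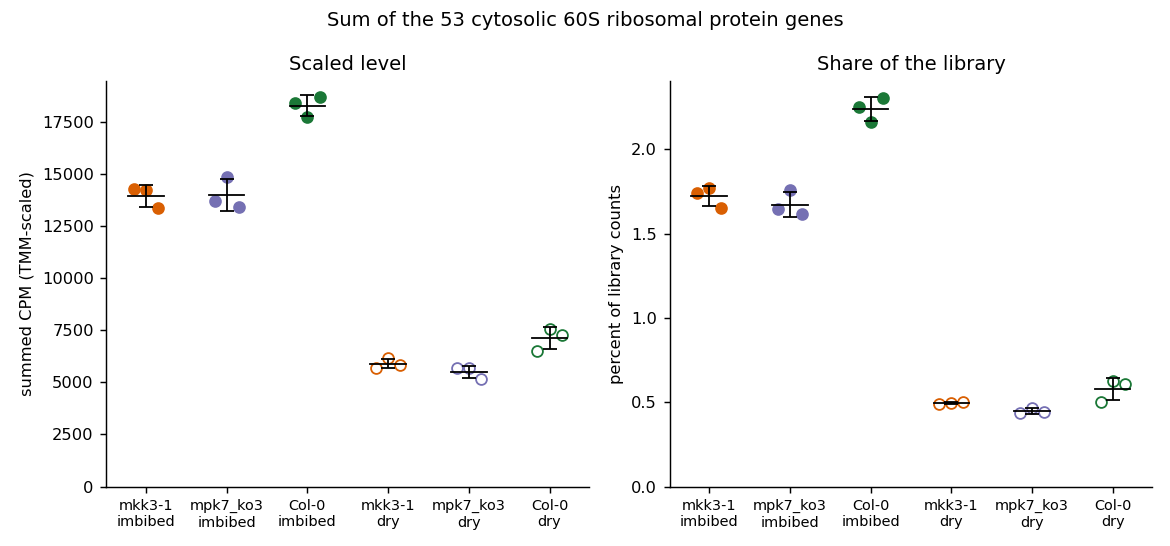
Summed level of the 53 60S genes in each library, in TMM-scaled CPM and as percent of all counts of the library, by group (filled points imbibed, open points dry seeds, bars mean ± SD, n = 3). The imbibed libraries sit between 13347 and 18712 CPM and the dry libraries between 5166 and 7562 CPM, and in both states the mutant libraries sit below the Col-0 libraries.

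Per kilobase of transcript, the median 60S gene stood at 262 CPM in imbibed and 94.5 CPM in dry Col-0 seeds, against 7.61 and 7.33 CPM for the median of all genes tested. In the mutants the median 60S gene stood at 198 CPM per kilobase in imbibed and 82.1 in dry mkk3-1 seeds, and at 195 in imbibed and 70.3 in dry mpk7_ko3 seeds. In imbibed Col-0 seeds 51 of the 53 genes ranked above the 90th percentile of all genes, against 39 in dry Col-0 seeds. The highest of them in Col-0 was AT1G02780 (emb2386, an L19 gene named for an embryo-defective mutant), with 829 CPM per kilobase in imbibed and 384 in dry seeds. The lowest was RPL10B, with 21.4 in imbibed and 2.81 in dry Col-0 seeds. The ratio of the highest to the lowest was therefore 38.7 in imbibed and 137 in dry Col-0 seeds.

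The first question of the design is how transcript levels differ between imbibed and dry seeds. In Col-0, all 53 genes rose (38.8% of all genes tested were called higher), with a median log2 difference of 1.44 and a range of 0.51 to 2.92, beside a median of 0.06 over all genes. In mkk3-1, 52 of the 53 rose (37.5% of all genes), with a median of 1.35, and in mpk7_ko3 all 53 rose (37.6%), with a median of 1.46. The library values of imbibed and dry seeds did not overlap for 52, 53 and 53 genes in mkk3-1, mpk7_ko3 and Col-0 (39.6%, 37.8% and 41.1% of all genes with imbibed above dry). The remaining gene in mkk3-1 was SAG24, an L10 paralog named as a senescence-associated gene. Scaling by library totals in place of TMM moved the median of all genes in Col-0 to 0.66 and that of the 53 genes to 2.03, so the rises are relative to that choice. In the same comparison after TMM scaling, 8 of 8 embryo storage markers fell in imbibed Col-0 seeds, 5 in mkk3-1 and 4 in mpk7_ko3. Their summed CPM were 0.678, 0.712 and 0.574 times the dry level in mkk3-1, mpk7_ko3 and Col-0 seeds. As percent of counts the ratios were 0.998, 1.05 and 0.871, so these falls too are relative to the scaling. The summed green tissue markers ran from 63.1 to 131 CPM in imbibed and from 19.8 to 40.5 CPM in dry seeds. Of the 4 measured, 3 rose and 1 fell in each genotype. The summed seed coat markers were 3.10, 2.99 and 2.59 times as high in imbibed as in dry mkk3-1, mpk7_ko3 and Col-0 seeds, where the summed 60S members were 2.37, 2.54 and 2.57 times as high. Single seed coat markers went both ways: of the 7 measured, 3, 2 and 3 rose in those genotypes and 2 fell in each. The summed endosperm markers were at 0.260, 0.395 and 0.300 times their dry level in imbibed mkk3-1, mpk7_ko3 and Col-0 seeds. Of the 2 measured, 1 fell (log2 -1.74) and 1 rose (1.74) in Col-0, and in each mutant 1 fell and 1 was not called. The ratios of the sums match those of the marker that fell, so these sums follow almost wholly 1 transcript. The part of these markers in the result was not tested.

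**Figure D2:**
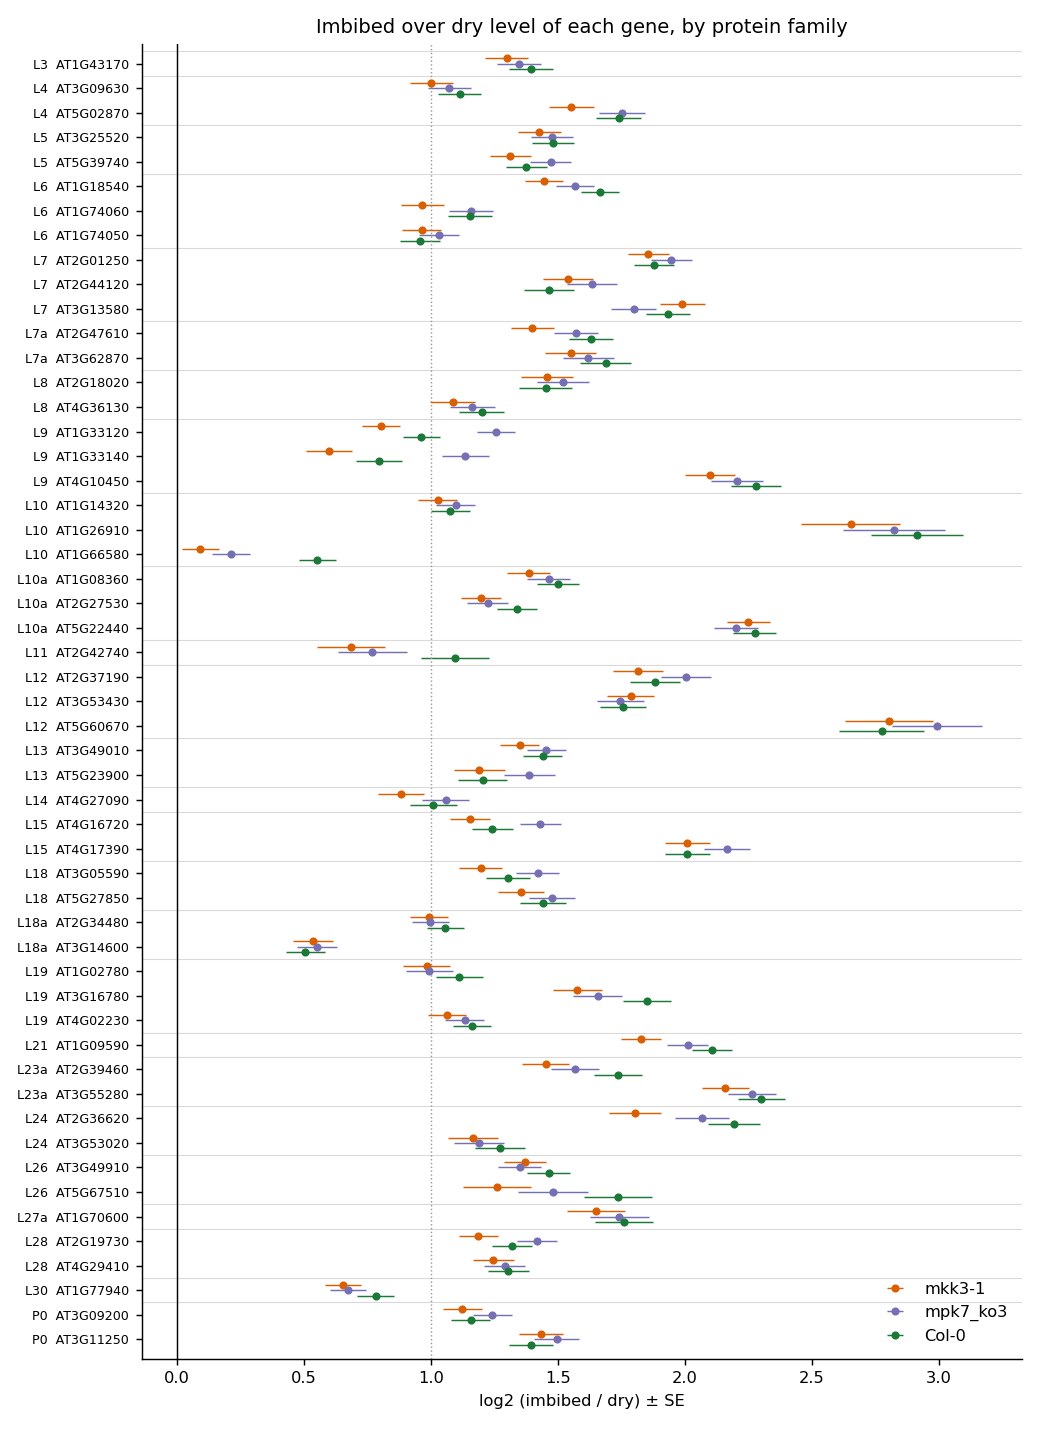
Log2 ratio of imbibed over dry seeds (± SE) for each of the 53 genes, grouped by protein family, in mkk3-1, mpk7_ko3 and Col-0 seeds. All points lie above 0; RPL10B and AT5G60670 stand highest and SAG24 and AT3G14600 lowest in Col-0.

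Proteins that line the peptidyl transferase centre and the tunnel in yeast and plant ribosomes (L3, L4, L8, L10, L23a and L26) were encoded by 12 of the genes, which had a median log2 rise of 1.46 in Col-0. L10, which closes the catalytic centre and is added late in subunit assembly in yeast, had the widest spread between paralogs. RPL10B had 23.04, 21.7 and 22.5 CPM in imbibed Col-0 seeds, against 2.12, 3.68 and 3.02 in dry Col-0 seeds. SAC52, the paralog found as a suppressor of the acaulis5 growth mutant, had 829, 755 and 828 CPM in imbibed Col-0 seeds, against 367, 400.01 and 376 in dry ones. SAG24 had 236, 234 and 243 CPM in imbibed Col-0 seeds, against 148, 172 and 165 in dry ones. In each case all 3 imbibed libraries lay above the dry ones, but the distance differed widely between the paralogs. The log2 rises were 2.92 ± 0.182 for RPL10B (adjusted p = 6.9e-12), 1.08 ± 0.0759 for SAC52 (adjusted p = 5.05e-11) and 0.55 ± 0.0733 for SAG24 (adjusted p = 8.24e-07). Both mutants had the same order of rises among the 3 paralogs: in mkk3-1 they were 2.65, 1.03 and 0.09, and in mpk7_ko3 2.82, 1.10 and 0.21 for RPL10B, SAC52 and SAG24.

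SAG24 was the least responsive of the 53 genes in both mutants. In mkk3-1 it had 208, 203 and 192 CPM in imbibed seeds, against 192, 200.1 and 175 in dry seeds, and the values overlapped (log2 0.09 ± 0.0730, adjusted p = 0.266); with upper-quartile factors or library totals it was called higher in imbibed mkk3-1 seeds (0.25 and 0.65). In mpk7_ko3 it had 181, 195 and 204 CPM in imbibed seeds, against 164, 162 and 175 in dry seeds, which did not overlap. The mpk7_ko3 rise was 0.21 ± 0.0732 (adjusted p = 0.0137) and passed the threshold, but not without dry replicate 2 (adjusted p = 0.0501) or without imbibed replicate 3 (adjusted p = 0.0623).

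**Figure D3:**
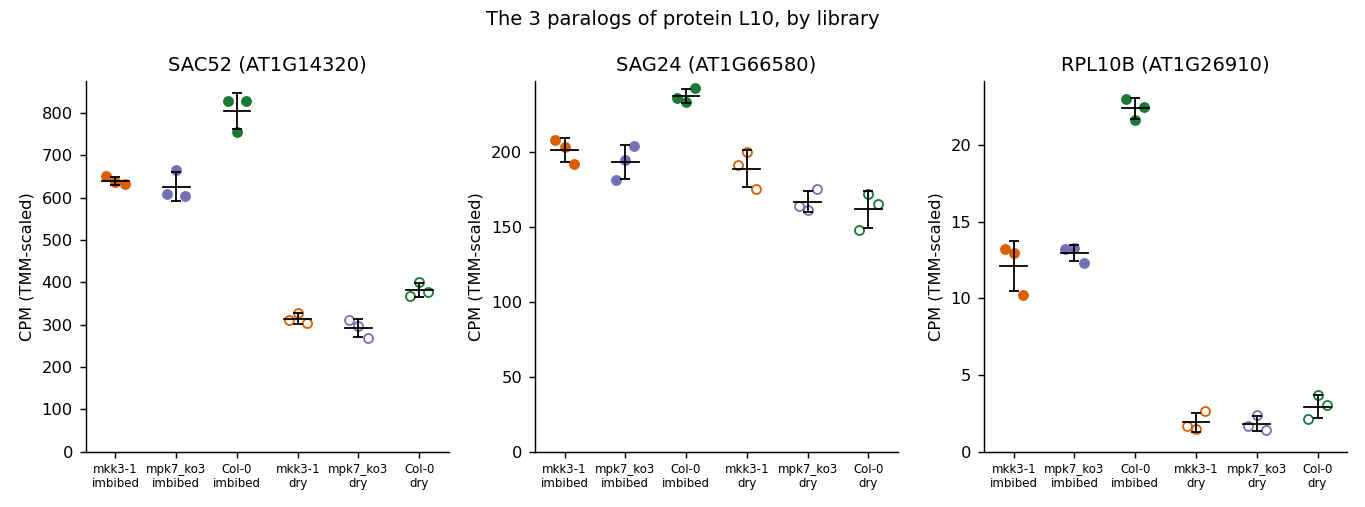
CPM of the 3 L10 genes SAC52, SAG24 and RPL10B in each library, by group (filled points imbibed, open points dry). RPL10B lies between 21.7 and 23.0 CPM in imbibed Col-0 libraries and between 2.12 and 3.68 in dry ones, while SAG24 in mkk3-1 overlaps between the states.

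Paralogs of the remaining families in this group differed less. Of the L4 genes, whose protein reaches into the exit tunnel, AT5G02870 had a log2 rise of 1.74 ± 0.0888 and AT3G09630 one of 1.11 ± 0.0843 in Col-0. RPL23AB (AT3G55280) and RPL23AA (AT2G39460) encode L23a, which sits at the tunnel exit. RPL23AB had 192, 179.9 and 183 CPM in imbibed Col-0 seeds, against 34.1, 39.01 and 39.3 in dry ones, a rise of 2.30 ± 0.0927 (adjusted p = 9.64e-15). RPL23AA had 325, 315 and 307 CPM in imbibed and 85.02, 105 and 94.1 in dry Col-0 seeds, a rise of 1.74 ± 0.0941. Neither gene's imbibed libraries came near its dry ones. The single listed L3 gene, RP1 (AT1G43170), rose by 1.39, the L8 genes EMB2296 (AT2G18020) and AT4G36130 by 1.45 and 1.20, and the L26 genes AT5G67510 and AT3G49910 by 1.74 and 1.46.

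The stalks, mobile arms that handle tRNA and elongation factors, are represented by L10a of the L1 stalk and L12 and P0 of the P-stalk (8 genes), with a median log2 rise of 1.63 in Col-0. The L12 gene AT5G60670 had 77.6, 76.00 and 89.3 CPM in imbibed Col-0 seeds, against 7.40, 15.2 and 12.6 in dry ones. Its paralog AT3G53430 had 314, 298 and 329 CPM in imbibed Col-0 seeds, against 78.6, 97.6 and 102 in dry ones. The states did not overlap for either gene, and the gap between them was wider for AT5G60670. The rise was 2.78 ± 0.166 (adjusted p = 3.85e-12) for AT5G60670 and 1.76 ± 0.0924 (adjusted p = 4.85e-13) for AT3G53430, with 1.88 for the third paralog, AT2G37190. The gene with only telo boxes was thus the one with the largest L12 rise, but over the 53 genes the median rise in Col-0 was 1.32 for the 13 genes with a telo box and 1.45 for the 40 without, and 1.38 for the 36 with a site II element and 1.74 for the 17 without.

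Among the L10a genes, AT5G22440 had 143, 130.4 and 139 CPM in imbibed Col-0 seeds, against 26.1, 28.9 and 29.98 in dry ones. PGY1 (AT2G27530), first described for its part in leaf polarity, had 531, 535 and 538 CPM in imbibed and 186, 214 and 234 in dry Col-0 seeds. Both pairs of groups were far apart. The rises were 2.28 ± 0.0839 (adjusted p = 2.91e-15) and 1.338 ± 0.0795 (adjusted p = 3.29e-12), with 1.499 for AT1G08360. The P0 genes AT3G09200 and AT3G11250, whose protein is the base of the P-stalk, rose by 1.16 and 1.39.

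L5 and L11 bind the 5S rRNA and enter the pre-ribosome with it in yeast. The L5 genes ATL5 (AT3G25520) and RPL5B (AT5G39740) rose by 1.48 ± 0.0831 and 1.38 ± 0.0800 in Col-0 seeds. The L11 gene RPL16A (AT2G42740) had 29.9, 29.5 and 32.4 CPM in imbibed Col-0 seeds, against 16.2, 13.99 and 12.8 in dry ones, which did not overlap, and rose by 1.09 ± 0.132 (adjusted p = 2.21e-07). Its rise was 0.68 in mkk3-1 and 0.77 in mpk7_ko3.

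L19, L24 and L30 form bridges to the small subunit (6 genes), and their median rise in Col-0 was 1.22, the lowest of the structural groups. RPL24A had 148, 143 and 142 CPM in imbibed Col-0 seeds, against 26.4, 35.3 and 32.9 in dry ones. STV1, the other L24 gene, known for reinitiation of translation and gynoecium patterning, had 520.3, 484 and 494 CPM in imbibed and 196, 211 and 214 in dry Col-0 seeds. The states did not overlap for either gene. The rises were 2.19 ± 0.103 (adjusted p = 8.64e-14) for RPL24A and 1.27 ± 0.0992 (adjusted p = 2.56e-10) for STV1. The L19 genes AT3G16780, AT4G02230 and emb2386 rose by 1.85, 1.16 and 1.11, and the listed L30 gene AT1G77940 by 0.78 ± 0.0719.

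The other 24 genes encode proteins of the body of the subunit and had a median rise of 1.38 in Col-0. The L9 gene AT4G10450 had 119, 112 and 126 CPM in imbibed Col-0 seeds, against 23.4, 26.2 and 23.8 in dry ones, a rise of 2.28 ± 0.0984 (adjusted p = 2.55e-14). The tandem gene PGY2 (AT1G33140) had 187, 189 and 174 CPM in imbibed and 93.8, 114 and 109 in dry Col-0 seeds, a rise of 0.79 ± 0.0901 (adjusted p = 8.67e-08), and AT1G33120 rose by 0.96. The states did not overlap for these genes. The split of reads between the tandem genes does not bear on the level of AT4G10450, none of whose windows occur elsewhere. Of the L18a genes, AT3G14600 had 138, 141 and 138 CPM in imbibed Col-0 seeds, against 101, 101 and 92.5 in dry ones. Its rise of 0.51 ± 0.0779 was the smallest in Col-0 (adjusted p = 6.21e-06), beside 1.06 for AT2G34480. The L15 gene AT4G17390 rose by 2.01 ± 0.0882 and its paralog AT4G16720 by 1.24, and the listed L21 gene AT1G09590 rose by 2.11 ± 0.0799. Both L28 genes, AT2G19730 and AT4G29410, rose nearly alike, by 1.32 and 1.30.

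Across the 53 genes, the rises in the genotypes, each from its own libraries, ran together (Pearson's r = 0.97 for mkk3-1 with Col-0, 0.96 for mpk7_ko3 with Col-0 and 0.97 between the mutants; Spearman's rho 0.98, 0.97 and 0.97). Each rise comes from 6 libraries of its own, but the values describe 53 genes measured together, and genes are not replicates. The gap between the highest and the lowest paralog of a family in Col-0 was 2.36 for L10, 1.48 for L9, 1.02 for L12, 0.94 for L10a and 0.92 for L24, and 0.01 for L28. In 14 of the 20 families with more than 1 listed gene, the paralog with the lowest level per kilobase in dry mkk3-1 seeds was the one with the largest rise in Col-0; the exceptions were L6, L7a, L8, L13, L18a and L28. With the dry level from Col-0 and the rise from mkk3-1 it was again 14 families, and with the rise from mpk7_ko3 it was 13. In 13 families of 2 genes and 7 of 3, many matches would occur without any link, and these counts were not tested.

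The makeup of most families differed between the states. A paralog's share was its level per kilobase as percent of the sum over the listed genes of its family, so it does not depend on the scaling between libraries and takes no account of unlisted paralogs. Shares can still depend on a trend of counts with GC content and gene length. Over the members this trend ran from -0.0592 to 0.311 (log2) in Col-0 dry replicate 1. In Col-0 imbibed replicate 1 it ran from -0.283 to 0.0346. The shares were not recomputed with the trend removed. In families of 2 only the first listed paralog was tested, as the other takes the remainder, and in families of 3 each was tested. The shares of a family are therefore linked, and the numbers higher and lower depend on the listing order. Of 34 shares tested over the 20 families (exact permutation test with state exchanged within each genotype, two-sided, adjusted over the 34 shares tested), 28 (82.4%) in 17 families differed, 14 of them higher and 14 lower in imbibed seeds. For 18 of these the 9 imbibed and 9 dry libraries did not overlap, and for 27 the direction was the same in all 3 genotypes. In 8000 permutations the smallest p possible was 0.00025, which corresponds here to an adjusted p of 0.000425.

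In the L10 family RPL10B made up 1.99 ± 0.388% in imbibed and 0.511 ± 0.151% in dry seeds (SD over 9 libraries each, as for all shares here), and SAC52 73.3 ± 0.915% and 62.9 ± 3.93%. SAG24 made up 24.7 ± 1.05% in imbibed and 36.5 ± 4.03% in dry seeds; all 3 L10 shares reached the smallest p. In L9, AT4G10450 made up 15.7 ± 1.82% in imbibed and 7.12 ± 0.694% in dry seeds, while PGY2 made up 42.9% and 49.8%. All L9 shares, that of AT4G10450 included, depend on how reads common to the tandem genes were counted, which is not known. AT5G60670 made up 11.9 ± 1.10% of L12 in imbibed and 6.14 ± 1.12% in dry seeds, AT5G22440 11.96 ± 1.03% and 6.71 ± 0.821% of L10a, and RPL24A 19.2 ± 1.65% and 11.9 ± 1.57% of L24. Genes that were the main form in dry seeds had smaller shares in imbibed seeds in several pairs: AT3G09630 of L4 had 53.3 ± 1.504% in imbibed and 63.7 ± 1.68% in dry seeds, and AT4G16720 of L15 had 68.5 ± 1.77% and 78.9 ± 1.63%. RPL23AA had 48.8 ± 1.504% of L23a in imbibed and 60.0 ± 1.97% in dry seeds. The other direction was seen for AT2G34480, the main form of L18a, with 74.9 ± 0.930% in imbibed and 68.1 ± 1.13% in dry seeds. The 6 shares that did not pass were those of AT1G08360 (L10a), AT2G37190 (L12), RPL18 (AT3G05590, L18), AT4G02230 (L19), AT3G49910 (L26) and AT2G19730 (L28).

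**Figure D4:**
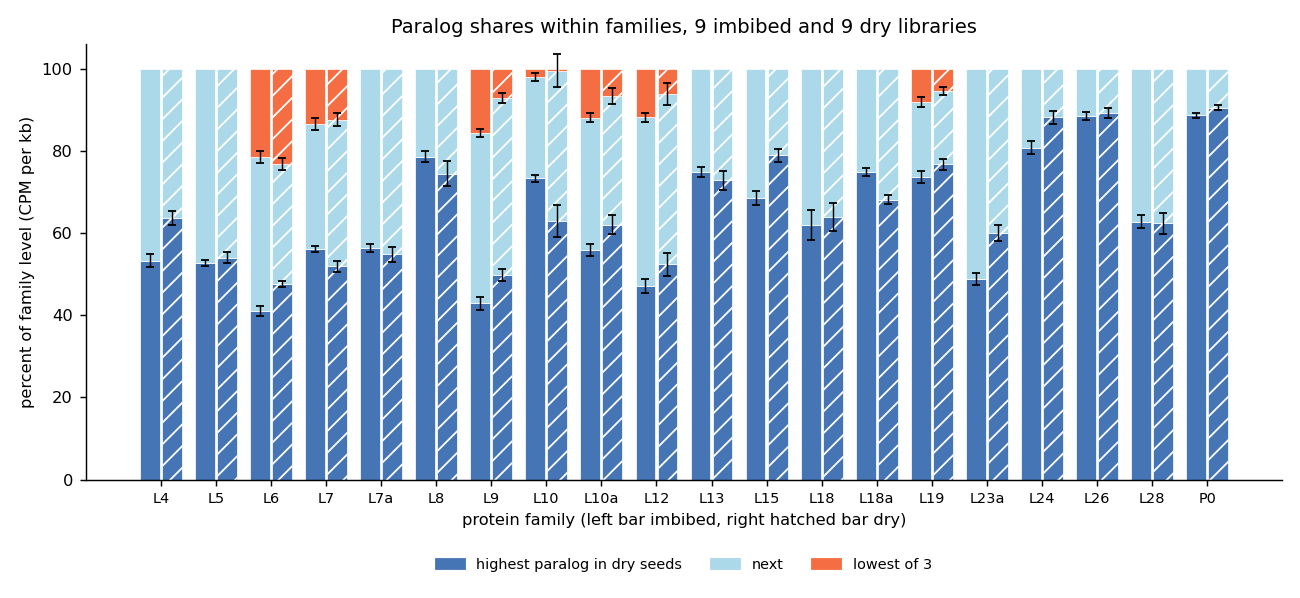
Share of each listed paralog in the summed level per kilobase of its family, in percent, for the 20 families with more than 1 listed gene (left bar imbibed, right hatched bar dry seeds, mean over 9 libraries, bars at the upper edge of a segment SD of that segment). AT4G10450 of L9 takes 15.7% in imbibed and 7.12% in dry seeds, and SAG24 of L10 24.7% and 36.5%. The L9 shares depend on how reads common to its tandem genes were counted, which is not known.

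The second question is how each mutant differs from Col-0 within a state. In imbibed seeds labelled mkk3-1, 48 of the 53 genes fell and none rose (4.32% of all genes tested were called lower and 3.63% higher), with a median log2 difference of -0.40 and a range of -0.89 to -0.17, beside a median of -0.02 over all genes. In imbibed mpk7_ko3 seeds 44 fell and none rose (4.72% of all genes called lower and 5.12% higher), with a median of -0.40 and a range of -0.79 to -0.17. The library values did not overlap for 53 genes in mkk3-1 (18.1% of all genes were lower without overlap) and for 52 in mpk7_ko3 (15.9%), the exception being RPL18. The differences were small, none of them as large as 2-fold. Both comparisons use the same Col-0 libraries.

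RPL10B had the largest difference in both mutants in imbibed seeds. It had 13.2, 12.96 and 10.2 CPM in imbibed seeds labelled mkk3-1 and 13.2, 13.3 and 12.3 in imbibed mpk7_ko3 seeds, against 23.04, 21.7 and 22.5 in imbibed Col-0 seeds. No mutant library reached the lowest Col-0 library. The differences were -0.89 ± 0.150 in mkk3-1 (adjusted p = 0.000835) and -0.79 ± 0.150 in mpk7_ko3 (adjusted p = 0.00198).

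The L26 gene AT5G67510, whose yeast protein lies near the tunnel exit, had 33.2, 29.8 and 31.1 CPM in imbibed seeds labelled mkk3-1 and 34.9, 34.4 and 30.3 in imbibed mpk7_ko3 seeds, against 49.9, 48.5 and 51.3 in imbibed Col-0 seeds. The listed L27a gene, AT1G70600, had 307, 311 and 277 CPM in mkk3-1 and 214, 287 and 255 in mpk7_ko3, against 429.97, 418 and 428 in Col-0, all imbibed. Mutant and Col-0 libraries were separate for both genes, although mpk7_ko3 replicate 1 lay well below the other 2 for AT1G70600. AT5G67510 differed by -0.67 ± 0.124 in mkk3-1 (adjusted p = 0.00171) and by -0.59 ± 0.123 in mpk7_ko3 (adjusted p = 0.00443). AT1G70600 differed by -0.51 ± 0.111 in mkk3-1 (adjusted p = 0.00572) and by -0.76 ± 0.111 in mpk7_ko3 (adjusted p = 0.000247).

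The L15 gene AT4G17390 had 190.2, 203 and 186 CPM in imbibed seeds labelled mkk3-1 and 195, 207 and 176 in imbibed mpk7_ko3 seeds, against 289, 264 and 321 in imbibed Col-0 seeds, with differences of -0.59 ± 0.0838 (adjusted p = 0.000142) and -0.60 ± 0.0838 (adjusted p = 0.000164). AT1G09590 of L21 had 162, 145 and 143 CPM in mkk3-1 and 175, 167 and 153 in mpk7_ko3, against 233, 222 and 232 in Col-0, with differences of -0.61 ± 0.0753 (adjusted p = 2.82e-05) and -0.47 ± 0.0751 (adjusted p = 0.000518). All mutant libraries of these genes lay below all Col-0 libraries. The most abundant gene, emb2386, had 673, 635 and 634 CPM in mkk3-1 and 608, 682 and 575 in mpk7_ko3, against 927, 882 and 950.1 in Col-0, again without overlap (-0.51 ± 0.0913 and -0.56 ± 0.0913). SAG24 had a smaller difference of -0.24 ± 0.0726 in mkk3-1, whose adjusted p of 0.0467 passed 0.05 narrowly and was lost under 18 of the alternatives tried, up to 0.189.

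By structural role, the genes that fell in imbibed seeds labelled mkk3-1 were 11 of 12 near the catalytic centre and tunnel, 3 of 3 for 5S rRNA binding, 6 of 8 in the stalks, 6 of 6 in the bridges and 22 of 24 in the body. In imbibed mpk7_ko3 seeds they were 11, 3, 7, 6 and 17. The 5 genes not called in mkk3-1 were AT3G09630 (L4), AT1G74050 (L6), PGY2 (L9), AT3G53430 (L12) and AT3G11250 (P0). The 9 not called in mpk7_ko3 were these except AT3G53430, and AT1G18540 (L6), AT2G44120 (L7), AT1G33120 (L9), RPL18 (L18) and AT3G14600 (L18a). Leaving out 1 library left 33 to 49 genes called in mkk3-1, the lowest without mkk3-1 imbibed replicate 3, and 32 to 45 in mpk7_ko3.

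**Figure D5:**
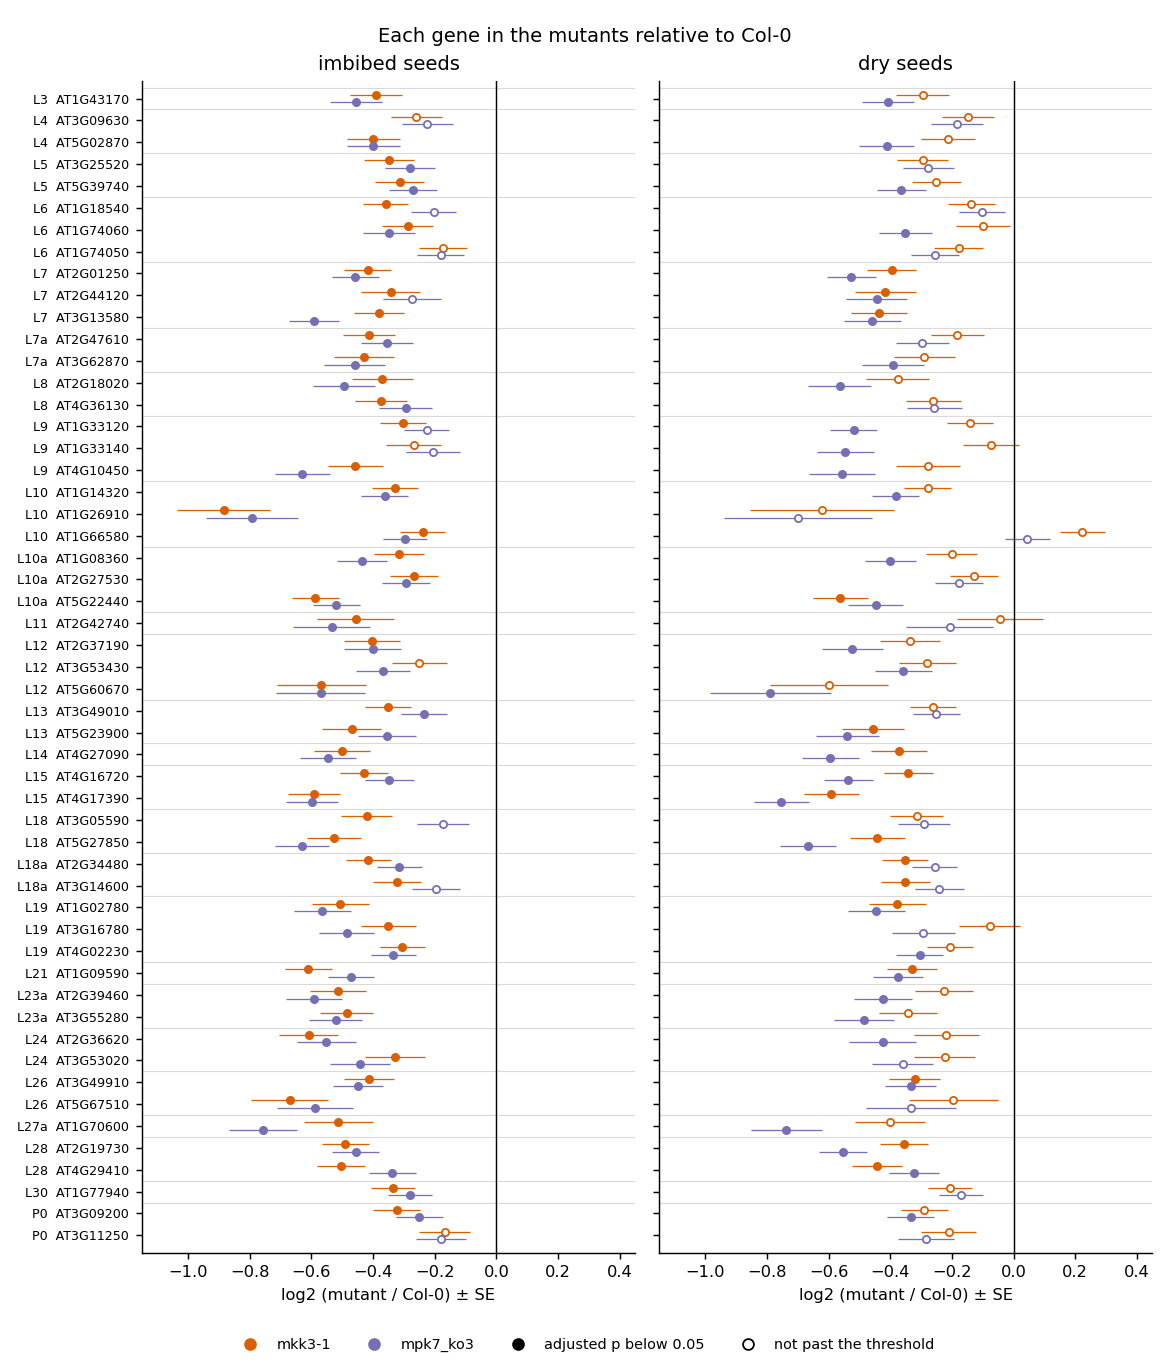
Log2 ratio of mkk3-1 and of mpk7_ko3 over Col-0 (± SE) for each of the 53 genes, in imbibed (left) and dry seeds (right); filled points have an adjusted p below 0.05. In imbibed seeds all points lie below 0; in dry seeds SAG24 alone lies above 0, in both mutants.

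In dry seeds fewer genes passed. In dry mkk3-1 seeds 16 of the 53 fell and none rose (1.4% of all genes tested were called lower and 0.687% higher), with a median log2 difference of -0.29 and a range of -0.62 to 0.22, beside -0.00 over all genes. In dry mpk7_ko3 seeds 34 fell and none rose (2.11% of all genes called lower and 0.653% higher), with a median of -0.38 and a range of -0.79 to 0.04. The libraries did not overlap for 33 genes in mkk3-1 (9.71% of all genes were lower without overlap, and 8.66% higher) and for 39 in mpk7_ko3 (9.37% lower). The mkk3-1 count was 3 without Col-0 dry replicate 2 or mkk3-1 dry replicate 1, 6 without replicate 3 of either dry group, and 29 in DESeq2. The mpk7_ko3 count was 11 without Col-0 dry replicate 2, 19 without Col-0 dry replicate 3 and 21 without mpk7_ko3 dry replicate 3.

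The 16 genes in dry mkk3-1 held all 3 L7 genes, AT2G01250, AT2G44120 and AT3G13580, both L15, both L18a and both L28 genes. AT4G17390 of L15 had 45.7, 49.8 and 48.5 CPM in dry mkk3-1 and 43.4, 44.8 and 40.6 in dry mpk7_ko3 seeds, against 64.4, 79.3 and 73.1 in dry Col-0 seeds. AT5G22440 of L10a had 17.6, 21.5 and 18.5 CPM in dry mkk3-1 and 22.7, 20.9 and 18.9 in dry mpk7_ko3 seeds, against 26.1, 28.9 and 29.98 in dry Col-0 seeds. For both genes all mutant libraries lay below the dry Col-0 libraries. The differences in mkk3-1 were -0.59 ± 0.0889 (adjusted p = 0.001) for AT4G17390 and -0.56 ± 0.0893 (adjusted p = 0.00172) for AT5G22440, and in mpk7_ko3 -0.75 ± 0.0897 (adjusted p = 0.000101) and -0.45 ± 0.0893 (adjusted p = 0.00774). These 2 genes and AT4G29410 of L28 (-0.44 ± 0.0816, adjusted p = 0.00518) were called in dry mkk3-1 under every alternative other than a changed threshold.

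In dry mpk7_ko3 seeds AT1G70600 of L27a had 81.5, 84.7 and 59.8 CPM, against 113, 138 and 126 in dry Col-0 seeds, and AT5G27850 of L18 had 113, 112 and 92.5 CPM, against 154, 181 and 169.5. In both genes mpk7_ko3 replicate 3 was the lowest library, and no mpk7_ko3 library reached Col-0. The differences were -0.74 ± 0.115 (adjusted p = 0.0011) and -0.67 ± 0.0900 (adjusted p = 0.000362). The tandem L9 genes AT1G33120 and PGY2 differed by -0.52 ± 0.0763 (adjusted p = 0.0007) and -0.55 ± 0.0920 (adjusted p = 0.00214) in dry mpk7_ko3 seeds, and AT5G60670 of L12 by -0.79 ± 0.197 (adjusted p = 0.0342). RPL10B, at 1.65, 2.40 and 1.44 CPM in dry mpk7_ko3 and 2.12, 3.68 and 3.02 in dry Col-0 seeds, had a difference of -0.70 ± 0.240 that did not pass (adjusted p = 0.129). Of the 34 genes, 10 were called under every alternative other than a changed threshold, among them AT4G17390, AT1G70600, AT5G27850 and both tandem L9 genes.

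SAG24 was the only gene of the 53 with a positive difference in dry seeds of each mutant. It had 192, 200.1 and 175 CPM in dry mkk3-1 and 164, 162 and 175 in dry mpk7_ko3 seeds, against 148, 172 and 165 in dry Col-0 seeds. The dry mkk3-1 libraries lay above the Col-0 ones without overlap, and the mpk7_ko3 libraries overlapped them. The differences did not pass in edgeR (0.22 ± 0.0735, adjusted p = 0.131, and 0.04, adjusted p = 0.82); DESeq2 called the first one (0.22, adjusted p = 0.0443), and over all alternatives its adjusted p ran from 0.0443 to 0.421. The difference was negative in both states for 52 of the 53 genes in each mutant, and the dry and imbibed differences, each from its own libraries, had a Pearson's r of 0.61 over the 53 genes in mkk3-1 (rho 0.61) and 0.64 in mpk7_ko3 (rho 0.64).

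Markers of the seed's tissues also moved with genotype. Of the embryo storage markers, 3 of 8 fell in imbibed and 3 in dry mkk3-1 seeds, and their summed level ran from 30450 to 38182 CPM in imbibed mkk3-1, 33328 to 50631 in imbibed mpk7_ko3 and 37675 to 40153 in imbibed Col-0 seeds. In dry seeds it ran from 43666 to 52533 CPM in mkk3-1, 46590 to 72761 in mpk7_ko3 and 62308 to 78212 in Col-0; in mpk7_ko3, 2 of 8 rose in imbibed and none was called in dry seeds. The summed endosperm markers, of which 2 of 6 were measured and AT1G65330 had no reads, ran from 2976 to 3353 CPM in imbibed mkk3-1, 5775 to 9031 in imbibed mpk7_ko3 and 5103 to 6944 in imbibed Col-0 seeds. In dry seeds they ran from 11370 to 12832 CPM in mkk3-1, 18021 to 18994 in mpk7_ko3 and 17522 to 24102 in Col-0. These endosperm sums follow almost wholly 1 of the 2 measured markers. The other one went the opposite way in mpk7_ko3 (log2 0.64 in dry and -0.85 in imbibed seeds, not called). In mkk3-1 both were lower than in Col-0 in each state. The summed seed coat markers ran from 770 to 817 CPM in imbibed mkk3-1, 674 to 1013 in imbibed mpk7_ko3 and 850 to 997 in imbibed Col-0 seeds, and from 241 to 273 CPM in dry mkk3-1, 266 to 282 in dry mpk7_ko3 and 348 to 373 in dry Col-0 seeds; AT1G09540 had no reads. In mkk3-1 1 endosperm marker fell in each state, 1 seed coat marker fell in dry seeds of each mutant, and 1 green tissue marker fell in imbibed mpk7_ko3 seeds. The summed green tissue markers ran from 92.8 to 108 CPM in imbibed mkk3-1, 63.1 to 78.4 in imbibed mpk7_ko3 and 106.1 to 131.0 in imbibed Col-0 seeds, so that the sums of imbibed mpk7_ko3 seeds lay wholly below those of imbibed Col-0 seeds. Of the 4 markers measured there, 1 was lower (log2 -0.84), and 3 were slightly higher (at most 0.11) and not called. In dry seeds they ran from 24.95 to 39.27 CPM in mkk3-1, 19.8 to 40.5 in mpk7_ko3 and 30.8 to 35.9 in Col-0. The part of these markers in the 60S differences was not tested.

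The shares of paralogs also differed between genotypes in some families (exact permutation test with genotype exchanged within each state, two-sided, adjusted over the 34 shares tested; smallest p 0.005 in 400 permutations). In mkk3-1, 11 of 34 shares (32.4%) in 7 families passed, and in mpk7_ko3 15 (44.1%) in 10 families. The test counts the 6 libraries of a genotype as separate units. Dry and imbibed libraries of the same genotype and number were positively correlated, up to 0.278 in mpk7_ko3. If such libraries share a harvest, which the labels do not say, these p-values may be too small. The only shares without overlap between mutant and Col-0 libraries were AT4G02230 of L19 in mkk3-1 and RPL18 in mpk7_ko3. AT4G02230 made up 18.6 ± 0.424% of its family in mkk3-1 and 16.9 ± 0.280% in Col-0 (SD over 6 libraries of both states, permutation adjusted p = 0.0243). RPL18 made up 66.7 ± 3.18% of L18 in mpk7_ko3 and 60.0 ± 1.52% in Col-0 (permutation adjusted p = 0.034), and AT5G27850 the remainder.

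In L10 the share of SAG24 in dry seeds was 39.6 ± 0.949% in mkk3-1 and 38.4 ± 2.68% in mpk7_ko3, against 31.6 ± 0.918% in Col-0 (SD, n = 3). In imbibed seeds the 3 values were 25.2%, 24.9% and 23.9%. Over both states its share was higher in each mutant (permutation adjusted p = 0.034 in mkk3-1 and 0.0453 in mpk7_ko3). The share of RPL10B was 1.67 ± 0.198% in imbibed mkk3-1 and 1.83 ± 0.0920% in imbibed mpk7_ko3, against 2.48 ± 0.0505% in imbibed Col-0 seeds, and was lower over both states in each mutant (permutation adjusted p = 0.034 each). None of the 34 shares passed in mpk7_ko3 without its replicate 3 in both states or without Col-0 dry replicate 1 or 2, and 4 passed without mpk7_ko3 dry replicate 3. Without Col-0 imbibed replicate 1, 7 passed in each mutant, and without Col-0 imbibed replicate 2 or 3, 8 passed in mpk7_ko3.

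The design also allows the imbibition responses to be compared. For none of the 53 genes did the response differ from that of Col-0 past the threshold in the edgeR fit of all 18 libraries, in either mutant (0.124% of all genes were called for mkk3-1 and 0.00563% for mpk7_ko3). At an unadjusted p below 0.05 there were 7 genes for mkk3-1, all with a negative difference (8.8% of all genes in either direction), and 3 for mpk7_ko3, of which 1 was negative (7.66% of all genes). The median difference of the responses was -0.11 for mkk3-1, negative for 45 of the 53 genes, and -0.02 for mpk7_ko3, negative for 30. The lowest p in both was that of SAG24, with -0.46 ± 0.103 for mkk3-1 (adjusted p = 0.0692) and -0.34 ± 0.103 for mpk7_ko3 (adjusted p = 0.397). DESeq2 called 1 of the 53 genes for mkk3-1, SAG24 (-0.45, adjusted p = 0.00187), and over the alternatives its adjusted p ran from 0.00187 to 0.219. SAG24 was also called in edgeR with only the libraries compared and without mpk7_ko3 replicate 3 in both states.

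Other genes of the ribosome and its assembly were counted in the same fits. In Col-0, 67 of 69 measured other 60S genes rose in imbibed seeds and none fell (median log2 1.45), and all 80 measured genes of the 40S subunit rose (median 1.43). Of 23 factors that assemble the 60S subunit, 18 rose and 2 fell (median 0.83), and of 21 nuclear genes for the large subunit of the plastid ribosome 13 rose and none fell (median 0.52). The assembly factor with the largest rise was AT2G40360, at 2.03 ± 0.104, and AT4G31420 fell by 1.61 on the log2 scale. In imbibed seeds labelled mkk3-1, 57 other 60S genes fell and 1 rose (median -0.46), 63 of the 40S genes fell (median -0.40), 1 assembly factor fell (median -0.09) and 9 plastid genes fell (median -0.33). In imbibed mpk7_ko3 seeds 61, 67, 1 and 7 fell and none rose (medians -0.49, -0.41, -0.08 and -0.29). In dry mkk3-1 seeds 15 other 60S genes fell and 1 rose (median -0.30), 12 of the 40S genes fell (median -0.28), and no assembly factor passed (median 0.00). In dry mpk7_ko3 seeds 39 other 60S and 47 of the 40S genes fell and 1 of the 40S genes rose (medians -0.47 and -0.42).

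The 60S gene that rose in mkk3-1 was RPL18AA (AT1G29970), an L18a gene outside the 53. It averaged 22.1 CPM in imbibed seeds labelled mkk3-1 and 9.02 in imbibed Col-0 seeds, a log2 difference of 1.29 ± 0.134 (adjusted p = 3.94e-06), and 62.9 CPM in dry mkk3-1 and 8.82 in dry Col-0 seeds, a difference of 2.83 ± 0.140 (adjusted p = 4.53e-11). Its imbibition response differed from that of Col-0 by -1.53 ± 0.192 (adjusted p = 0.000583), while the listed L18a genes AT2G34480 and AT3G14600 fell in mkk3-1 in both states.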

How the data were processed

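RNA-seq libraries of imbibed and dry seeds of mkk3-1, mpk7_ko3 and Col-0 (3 per group, 18 in all; total RNA, sequenced as read pairs, per the labels) were analysed from the authors' deposited table of raw counts per gene. The submitters' processing notes list featureCounts 2.0.1, HISAT2 2.1.0, fastp 0.20.0 and, with the build TAIR10, DESeq2 1.34.0. How featureCounts treated strand, multiple matches and mates is not given in the sources used here, so paralogs with long identical stretches and antisense overlaps are uncertain. The authors' deposited lengths were used for values per kilobase.

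The filter on low counts was filterByExpr with a minimum of 10. Counts were fitted in edgeR 4.0.16 (glmQLFit, glmQLFTest, TMM; R 4.3.3) with 1 mean per group over all 18 libraries, leaving 12 residual degrees of freedom. The 9 comparisons were two-sided, with Benjamini-Hochberg adjustment over 17758 genes at 0.05. The SE is the absolute log2 ratio over the square root of F. The common biological coefficient of variation was 0.104, and no pair of libraries of a group agreed within counting noise (chi-square per degree of freedom 7.22 to 34.9). Paralog shares were tested by exact permutation, enumerating all exchanges within a stratum (Python 3.11.15). Sequences and gene ends came from RefSeq TAIR10.1, where 27443 of 27444 nuclear protein-coding genes have the table's start and end; coding sequences were aligned with Biopython 1.88. The procedures were tested on simulated data.

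Alternatives were DESeq2 1.42.0, other scalings and filters, fits of the compared libraries only, a replicate block, thresholds and each library left out; a fit with the GC and length trend removed and paralog shares exchanged within replicate numbers were chosen after seeing the data. The members and gene lists were chosen with earlier results of these data known. All 53 members could be named, MKK3 and MPK7 as a check, and from other lists up to 4 called genes of largest change per comparison. Genes without reads were not tested.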

Additional observations from a re-analysis of the deposited data

Results flagged for a closer look

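The imbibition response of RPL18AA (AT1G29970), an L18a gene outside the 53, differed between mkk3-1 and Col-0 seeds by -1.53 on the log2 scale in edgeR's test of that difference (adjusted p = 0.000583). The response of MKK3 (AT5G40440) itself differed between mkk3-1 and Col-0 seeds by 1.06 (adjusted p = 0.0017). Its level was different by -1.24 on the log2 scale in dry mkk3-1 seeds relative to dry Col-0 seeds, and did not differ past the threshold in imbibed seeds.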

How the results depend on the processing

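No alternative turned a called direction round. The imbibition calls held at 53 (Col-0), 52 (mkk3-1) and 52 to 53 (mpk7_ko3) genes with each library left out. For dry mkk3-1 against dry Col-0 (16 genes called) the count was 29 with DESeq2, 8 with library totals, 7 with only the libraries compared, 3 at an adjusted p below 0.01, and 3 to 23 with a library left out. For dry mpk7_ko3 (34 called) it was 10 with only the libraries compared, 18 at 0.01 and 11 to 40 with a library left out. For imbibed seeds the counts were 33 to 49 (mkk3-1, 48 called) and 32 to 45 (mpk7_ko3, 44 called) with a library left out. With a 2-fold minimum all 4 mutant comparisons had 0 genes. The mkk3-1 response difference (0 called) had 1 gene, SAG24, with DESeq2, with only the libraries compared and without mpk7_ko3 replicate 3 in both states, and both response differences had 0 to 0 with a library left out. Of the paralog shares, 26 to 29 differed between states, 7 to 14 in mkk3-1 and 0 to 18 in mpk7_ko3 with a library left out. At 0.01 none passed in either mutant. The smallest p possible there was 0.005 before adjustment over 34 shares, so this threshold could be met only if many shares reached that p. Without mpk7_ko3 replicate 3 in both states 0 passed in mpk7_ko3. The cause was not tested.

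Over all groups, replicate numbers showed little pairing: of 45 same-numbered pairs, 12 had deviations correlated above 0.1 (median 0.0011). Dry and imbibed libraries of the same genotype and number, however, were all positively correlated. For replicates 1, 2 and 3 the values were 0.098, 0.069 and 0.048 in Col-0 and 0.0081, 0.099 and 0.109 in mkk3-1. In mpk7_ko3 they were 0.044, 0.203 and 0.278, where differently numbered dry and imbibed pairs ran from -0.260 to 0.106. With the replicate number as a block the counts were 53, 52 and 53 for imbibition in Col-0, mkk3-1 and mpk7_ko3, 16 and 33 for dry mkk3-1 and mpk7_ko3, 47 and 42 for imbibed mkk3-1 and mpk7_ko3, and 0 for both response differences. That block gives each number an effect shared by all 6 groups. It does not model a pairing of dry and imbibed libraries within a genotype, which was not tested. With shares exchanged only between libraries of the same replicate number, a test chosen after seeing the data, 25 shares differed between the states and 0 in either mutant, where 12 (mkk3-1) and 13 (mpk7_ko3) of 34 had an unadjusted p below 0.05 and the smallest p that 64 exchanges can give is 0.0312. In the mutants a share could thus pass after adjustment only if many shares reached that p, so the 0 cannot decide whether shares differed. With the GC and length trend removed the counts of genes called were 53, 52, 53, 14, 27, 47, 43, 0 and 0, in the order given for the block. The shares were not recomputed in this way.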
